A study of Mus musculus with 2 samples.

Results

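The 10 genes described here encode antiviral effectors or interferon-induced proteins of related use: viperin (Rsad2), the neighbouring nucleotide kinase Cmpk2, the Mx GTPases Mx1 and Mx2, and Isg20, Ifi27l2a, Ifi35, Ifi44, Xaf1 and Rtp4. They were chosen by symbol from 55536 annotated genes, and all 10 were found in both libraries. The libraries were 2 biological replicates of bone marrow-derived macrophages of C57BL/6J mice, which are primary cells grown out of bone marrow in culture, and polyA-selected RNA of whole cells was sequenced. Both had received a first dose of 100 ng/ml Lipid A, the lipid part of bacterial endotoxin, over 12 h, a rest of 12 h after washing, and a second dose of 100 ng/ml over 300 min. Another field of the labels gives the agent as lipoprotein A, a protein, and which name holds cannot be told from the labels. Both libraries carry 1 donor identifier and separate biosample identifiers, and sex and age were not collected, so the SDs given may be narrower than those between separate mice. There was 1 group, and untreated, once-treated or rested cells were not analysed here, so no gene was tested for a response and no p-value is given.

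Lipid A is sensed by the receptor Tlr4, which signals through the adaptor Trif to induce interferon beta. Secreted interferon beta then acts back on the cells through ISGF3, a complex of transcription factors that binds interferon-stimulated response elements (ISREs) in the promoters of antiviral genes. The effectors work at different steps: viperin turns CTP into a nucleotide that ends viral RNA chains, Mx proteins are dynamin-like GTPases that trap viral nucleocapsids, and Isg20 is an exonuclease that degrades single-stranded RNA.

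Promoter sequences carry the sites such factors read, and RefSeq promoter windows (build GRCm38.p6) were found for 6 of the 10 genes. Windows for Mx1, Mx2, Ifi27l2a and Rtp4 were not used here. Each sequence runs 5′ to 3′ on the gene's strand from 130 bases before the RefSeq start to the first 10 transcribed bases, and capitals mark matches, on either strand, to the ISRE core GAAANNGAA or to the core moved by 1 base, AAANNGAAA.
Rsad2, chr12:26456443-26456582, minus strand: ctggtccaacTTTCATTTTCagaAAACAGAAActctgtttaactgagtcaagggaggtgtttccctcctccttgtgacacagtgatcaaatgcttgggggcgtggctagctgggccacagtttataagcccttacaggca
Cmpk2, chr12:26469085-26469224, plus strand: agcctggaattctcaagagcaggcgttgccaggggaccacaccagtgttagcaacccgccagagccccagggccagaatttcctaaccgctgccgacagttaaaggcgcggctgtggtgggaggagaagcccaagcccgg
Ifi44, chr3:151749901-151750040, minus strand: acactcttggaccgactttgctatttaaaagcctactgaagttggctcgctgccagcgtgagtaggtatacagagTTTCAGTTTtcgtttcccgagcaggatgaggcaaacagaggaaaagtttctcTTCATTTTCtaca
Xaf1, chr11:72301499-72301638, plus strand: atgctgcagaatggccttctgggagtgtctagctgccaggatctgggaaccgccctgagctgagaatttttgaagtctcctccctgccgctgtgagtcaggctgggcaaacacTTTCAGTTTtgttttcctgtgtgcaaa
Isg20, chr7:78913294-78913433, plus strand: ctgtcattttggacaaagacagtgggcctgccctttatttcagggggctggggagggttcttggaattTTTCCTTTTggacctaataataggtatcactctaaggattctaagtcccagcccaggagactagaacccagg
Ifi35, chr11:101448282-101448421, plus strand: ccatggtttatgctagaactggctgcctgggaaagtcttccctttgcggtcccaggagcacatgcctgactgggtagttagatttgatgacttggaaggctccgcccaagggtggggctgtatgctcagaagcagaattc

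Isg20 has 3 RefSeq windows, and the one of its outermost start is shown. The search covered the whole of each window, 250 bases before to 50 bases after the start. A gene was counted if any of its windows held a match, while the shares given beside these counts are of single windows. GAAANNGAA was found for 2 of the 6 genes, Rsad2 and Ifi44, and is held by 8.56% of the 32851 windows in the table. The Rsad2 match lies at -119 to -111 from the start, on the strand opposite the gene, where the first transcribed base is 1 and the base before it -1. This was the only member's match with the same core followed by a further A, which 3.44% of all windows hold. The Ifi44 match reaches across the start, from -3 to 6.

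AAANNGAAA was found for 4 of the 6 genes, against 10.6% of all windows, and this motif was added after the sequences had been seen. Its matches were in Rsad2 at -120 to -112, where it overlaps the core, and at -107 to -99, in Ifi44 at -55 to -47, in Xaf1 at -17 to -9 and in Isg20 at -62 to -54. The letters TTCNNNGAA of the GAS, the interferon gamma-activated site, were found in Isg20 at -73 to -65 and in Ifi35 at 8 to 16, and 8.3% of all windows hold them. TATAAA was found for Rsad2 alone, on the opposite strand at -10 to -5, against 13.6% of windows. The kB motif, read by NF-kB, was found for 0 of the 6 genes, against 4.51% of windows. The Cmpk2 window held no match to any of these motifs. These are matches of letters in one window per start, and binding was not measured.

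All 10 genes were abundant. Levels are deposited gene values in TPM, a measure scaled for transcript length and to 1 fixed total per library. They are given for replicate 1 and then replicate 2, with the SD of both (n = 2). Every one of the 10 reached 100 TPM in both libraries, against 2.22% of all genes and 5.42% of the 22028 protein-coding genes. Their median over the 10 was 581.9 TPM in replicate 1 against 624.0 TPM in replicate 2, while the protein-coding median was 0.28 and 0.27 TPM. The 10 genes together summed to 9915 and 10491 TPM and took 1.66% and 1.73% of all gene counts.

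Rsad2 (chr12:26442746-26456452, minus strand, mm10) encodes viperin, a radical S-adenosylmethionine enzyme. It stood at 3754 and 3773 TPM, a mean of 3764 ± 13.2 TPM, on 479751 and 440464 counts. It ranked 26th and 25th of all genes and made up 37.9% and 36.0% of the summed TPM of the 10. The libraries were nearly level for this gene. The protein-coding genes nearest to it in level were Rps24, a ribosomal protein gene at 3884 and 3494 TPM, and Ifitm3, an interferon-induced membrane protein gene at 3685 and 4139 TPM, with distances of 0.12 and 0.14 on the log2 scale over the 2 libraries.

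Cmpk2 (chr12:26469204-26479837, plus strand) encodes a mitochondrial kinase of UMP and CMP, and so acts on the nucleotide family that viperin draws on. It stood at 1738 and 1929 TPM, a mean of 1833 ± 135 TPM. The genes point away from each other, their starts lie 12752 bases apart, and 0 annotated genes lie between them. Rsad2 was 2.16 times Cmpk2 in replicate 1 and 1.96 times in replicate 2, a log2 difference in level of 1.04 ± 0.10 (SD, n = 2), so Rsad2 was the higher in both libraries.

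Mx1 (chr16:97447035-97462907, minus strand) stood at 1299 and 1466 TPM, a mean of 1383 ± 118 TPM. Mx2 (chr16:97535308-97560900, plus strand) stood at 208 and 246 TPM, a mean of 227 ± 26.5 TPM. Both belong to the Mx GTPase family, and they lie 72401 bases apart with 4 annotated genes between them. Mx1 exceeded Mx2 by 6.24 and 5.97 times, a log2 difference in level of 2.60 ± 0.04. Their expected counts were fractional, so reads were shared out between genes, and the split between these close relatives is uncertain to that extent.

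The remaining effectors and interferon-induced genes followed between 976 and 215 TPM. Ifi27l2a (chr12:103442167-103443680, minus strand), which encodes a small interferon-induced membrane protein, stood at 941 and 1011 TPM (976 ± 49.7). Xaf1 (chr11:72301629-72313733, plus strand), whose product antagonises the caspase inhibitor Xiap, stood at 573 and 661 TPM (617 ± 62.3). Rtp4 (chr16:23520291-23614222, plus strand), a member of the receptor transporter family, stood at 591 and 587 TPM (589 ± 2.84). Xaf1 lay below Rtp4 in replicate 1 and above it in replicate 2, so their order is not settled.

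Ifi44 (chr3:151730922-151749960, minus strand), an interferon-induced gene, stood at 333 and 289 TPM (311 ± 30.8). Isg20 (chr7:78913424-78920396, plus strand), the exonuclease gene, stood at 262 and 313 TPM (287 ± 36.1). Ifi35 (chr11:101448407-101458698, plus strand), whose product binds the interferon-induced protein Nmi, stood at 215 and 216 TPM (215 ± 0.156), also on fractional counts. In the order of means, neighbours overlapped in 3 of 9 steps, which were Xaf1 with Rtp4, Ifi44 with Isg20 and Mx2 with Ifi35. The other 6 steps kept their order in both libraries. The protein-coding genes nearest to Ifi35 in level were Pcna, the replication clamp gene at 216 and 215 TPM, and Pgap2 at 212 and 215 TPM.

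**Figure D1:**
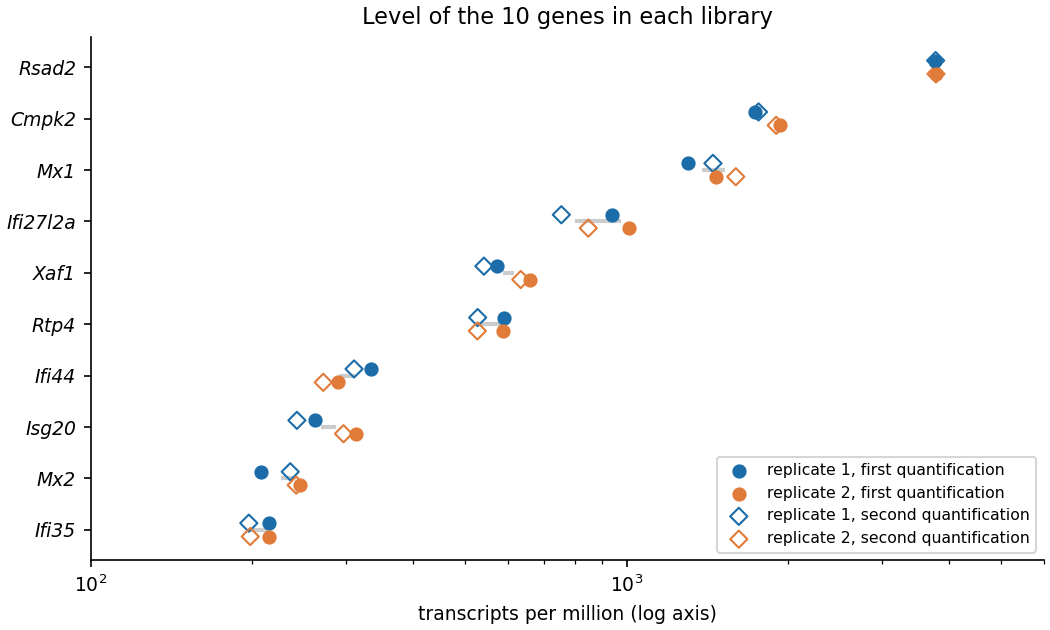
Level of each gene in TPM (log axis) in replicate 1 (blue) and replicate 2 (orange), by the first quantification (filled circles) and the second (open diamonds), with a grey line between the 2 quantification means. Rsad2 stands at 3754 and 3773 TPM, above Cmpk2 in every case, and all 10 genes lie above 100 TPM.

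A further deposited table, the second quantification, was made directly from the reads and gave the same order of mean levels. The log2 difference, first minus second quantification, lay between -0.18 and 0.32 for every gene and library. It was largest for Ifi27l2a, at 0.32 in replicate 1 and 0.25 in replicate 2. For Mx1 it was -0.16 and -0.12, so the second quantification put that gene higher in both libraries. Mx2 differed in sign between libraries, at -0.18 and 0.02.

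Ratios between the libraries were small for these genes. Expected counts were rounded and scaled with TMM factors, and the log2 ratio is replicate 1 over replicate 2. None of the 10 genes was 2-fold apart, against 4.21% of the 12543 genes that passed the filter on low counts, 528 genes. All 10 passed that filter. Genes with more counts had ratios nearer 0, and the median absolute log2 ratio was 0.15 for the 10 genes, 0.21 for all genes and 0.17 for the 1267 genes with a mean count at least that of the lowest member.

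Of the 10 genes, 3 were higher in replicate 1 and 7 in replicate 2, and their median log2 ratio was -0.13, against 0.00 over all genes. Only 1 was higher in replicate 1 with no filter on low counts or by the second quantification, and the ratios of Rsad2 and Rtp4 lay within 0.01 of 0. Ifi44 was the gene furthest toward replicate 1, with a log2 ratio of 0.21 and a 95% counting interval of 0.18 to 0.23. Isg20 and Xaf1 were furthest toward replicate 2, at -0.26 each, with counting intervals of -0.31 to -0.22 for Isg20 and -0.29 to -0.22 for Xaf1. Rsad2 differed by 0.0069, with an interval of 0.0010 to 0.013. The counting interval left out 0 for 8 genes and held it for Rtp4 and Ifi35. These exact intervals cover counting error only, and with 1 library on a side the ratios have no replicate check.

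**Figure D2:**
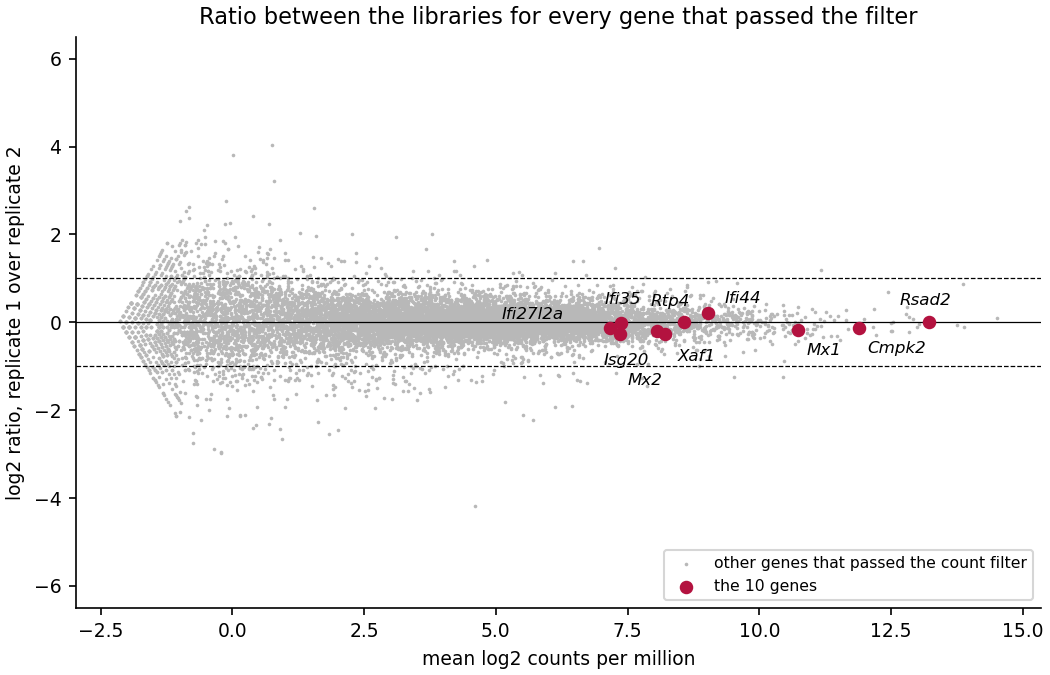
Log2 ratio of replicate 1 over replicate 2 (vertical axis) against mean log2 CPM, counts scaled to library size (horizontal axis) for the genes that passed the count filter, with the 10 genes in red and dashed lines at 2-fold. All 10 lie between the dashed lines, and Ifi44 lies highest at 0.21.

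The transcript tables show which forms of each gene these levels stand for. The 10 genes have 46 annotated transcripts, and each gene's leading transcript by TPM was the same in both libraries and in both quantifications. It held at least 80% of the gene in 7 genes and was annotated as protein-coding in 7. Rsad2-201, of 6 exons and 362 codons, held 99.8% ± 0.0327 of Rsad2 (SD, n = 2, here and below). Cmpk2-201, of 447 codons, held 96.5% ± 0.207 of Cmpk2. By the second quantification Cmpk2-201 held 91.8% and Cmpk2-203, a form with a retained intron, 6.13%. Most RNA of this neighbouring pair was thus assigned to 1 coding form of each gene.

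Ifi27l2a had 1 annotated transcript, of 463 bases and 90 codons. Isg20-201, of 181 codons, held 90.1% ± 2.03 of Isg20, and Isg20-205, a form with a retained intron, held 7.54%. Ifi35-201, of 286 codons, held 91.1% ± 2.53, and Ifi35-203, a form annotated for nonsense-mediated decay (the removal of RNAs with an early stop codon), held 6.79%. Coding forms led all 3 of these genes.

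Ifi44-201, of 422 codons, held 86.2% ± 0.699 of Ifi44, and the non-coding Ifi44-204 held 8.86%. Rtp4-203 held 80.6% ± 0.230 of Rtp4 and encodes 249 codons, as does Rtp4-201 at 8.96%. The shorter Rtp4-204, of 61 codons, held 10.5%. By the second quantification Rtp4-204 held 4.72%, below Rtp4-201 at 6.87%. All 5 annotated Rtp4 forms are protein-coding, so Rtp4 RNA could be assigned to coding forms only.

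Xaf1 was split between forms of different length. Xaf1-201, annotated for nonsense-mediated decay and only 415 bases long, held 46.0% ± 0.266 of the gene's TPM. Xaf1-202, of 178 codons, held 32.8%, and Xaf1-204, of 273 codons and 2597 bases, held 18.0% ± 1.75. The order by counts was different, because TPM divides by length: Xaf1-204 took 8110 and 9822 counts, against 1535 and 1643 for Xaf1-201. Xaf1 was the 1 gene of the 10 whose form with most counts was not its form with most TPM. Its protein-coding forms together held 51.9% ± 1.08 of the gene's TPM, and 79.4% and 84.1% of its counts.

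**Figure D3:**
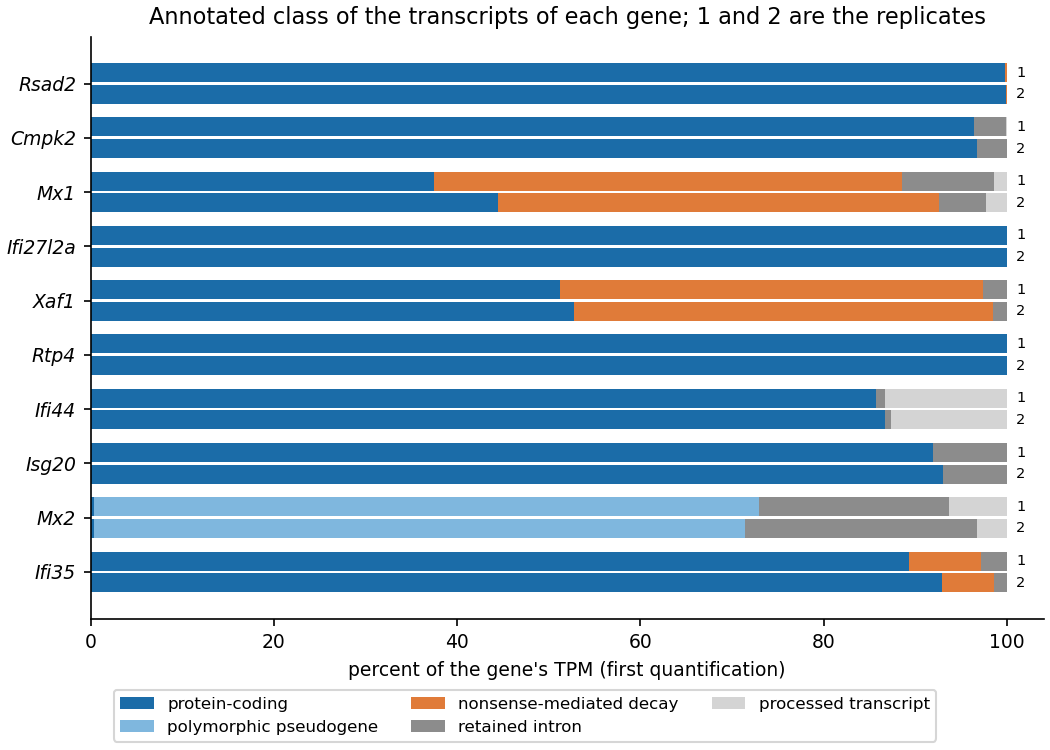
Percent of each gene's TPM (first quantification) on transcripts of each annotated class, with replicate 1 above replicate 2 for each gene. Mx1 and Xaf1 hold 49.6% and 46.0% on nonsense-mediated decay forms, and Xaf1 holds 51.9% on protein-coding forms. Mx2 is mostly polymorphic pseudogene, and each of the other 7 genes has a mean of at least 86.2% on protein-coding forms.

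Mx1 and Mx2, like Xaf1, had leading forms not annotated as protein-coding. As background, most inbred laboratory strains, C57BL/6 among them, carry an Mx1 allele that lacks coding exons and an Mx2 allele with a frameshift, and make no working Mx protein. The annotation calls Mx2 a polymorphic pseudogene, which is a gene that is coding in some strains and not in the reference strain. Forms annotated for nonsense-mediated decay held 49.6% ± 2.09 of the TPM of Mx1, against 41.0% ± 4.93 for protein-coding forms. By counts the decay forms took 72.7% in replicate 1 and 66.9% in replicate 2, and the coding forms 26.3% and 32.1%.

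The leading Mx1 form was Mx1-205, a decay form of 11 exons and 309 codons, at 580 and 581 TPM, which was 42.1% ± 3.56 of the gene. Mx1-204, a short form of 481 bases annotated as protein-coding, held 22.3%, on only 2170 and 2591 counts. Its annotated coding sequence of 196 bases is not a whole number of codons. That sequence runs to the last base of the form, so it is incomplete as annotated. Mx1-202, a coding form of 9 exons and 397 codons, held 18.3% ± 2.75. Mx1-201, with 15 exons and 627 codons the longest coding form, held 0.133% ± 0.0287, on 226 and 171 counts. By the first quantification that was the lowest mean share of the 10 Mx1 forms, although in replicate 1 the coding form Mx1-209 was lower, at 1.57 TPM against 1.99 TPM for Mx1-201.

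That value depended on the quantification. Mx1-201 held 0.133% by the first and 7.31% ± 1.80 by the second. Mx1-203, a decay form, held 3.09% by the first and 12.3% by the second. Mx1-202 held 18.3% by the first and 11.0% by the second, which put it below Mx1-203. Mx1-205 led by both, with 42.1% by the first and 26.5% by the second. Mx1-201 holds 4 exons, of 404 bases in all, that overlap no exon of another annotated Mx1 form.

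The exon chain shows where Mx1-205 and Mx2 part. Read in order of transcription, 7 exons of Mx1-205 have the same length as exons of Mx2-202, the leading Mx2 form, and 907 of their 980 bases, 92.6%, were identical without gaps. Exons 3 to 8 of both forms were 89.9% to 99.4% identical, while exon 9 of Mx1-205 and exon 12 of Mx2-202 shared 48 of 77 bases, 62.3%, and were paired by length and order. Exon 8 of Mx1-205 (chr16:97452773-97452851) and its exon 9 (chr16:97451475-97451551) are joined directly, while Mx2-202 has 3 exons between the exons paired with them, of 123, 143 and 159 bases, 425 in all. In Mx1-205 the reading frame then meets a stop codon that ends 24 bases after the join, with 2 further exons downstream. The stretch is shown from 30 bases before the end of exon 8, with the stop codon in capitals, beside the same number of bases of Mx2-202 around the end of its own exon 8, both from the GENCODE M21 transcripts.
Mx1-205: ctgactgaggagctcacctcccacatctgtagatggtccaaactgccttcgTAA
Mx2-202: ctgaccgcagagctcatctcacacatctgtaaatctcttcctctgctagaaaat

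Both sequences run 5′ to 3′, and the last 24 bases of each lie past the end of exon 8. Mx1-202, the main long coding form, joins exons on either side of a wider gap, leaving out the exons of 199 and 79 bases that Mx1-205 and Mx2-202 share, and its coding sequence reaches the last exon.

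**Figure D4:**
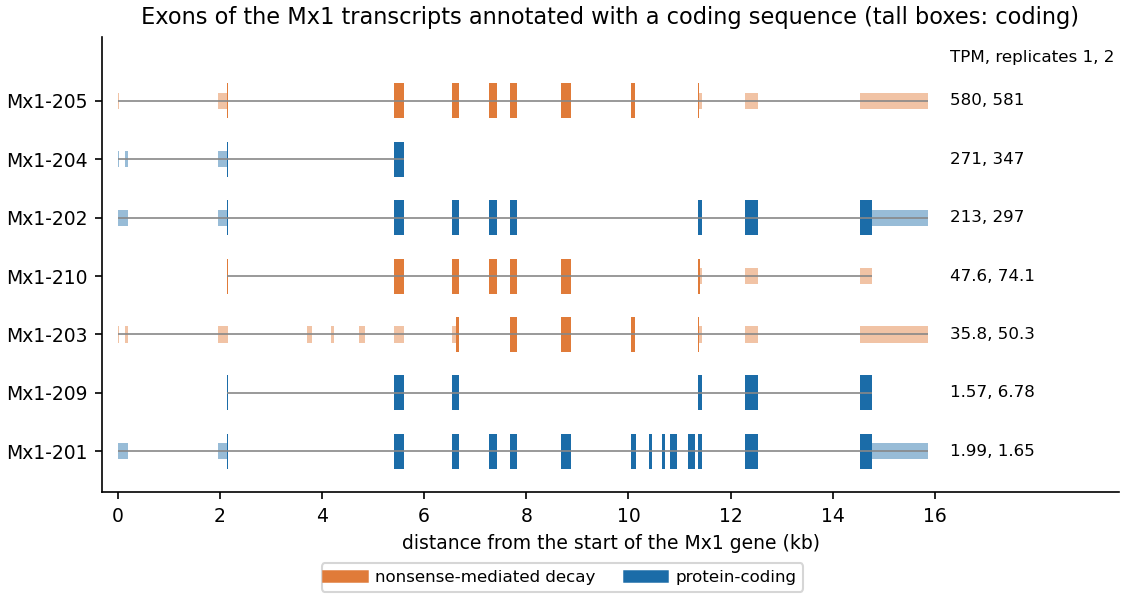
Exons of the Mx1 forms annotated with a coding sequence, drawn to scale by distance from the start of the gene (kb), tall where coding, with nonsense-mediated decay forms in orange, protein-coding forms in blue and TPM of replicates 1 and 2 on the right. Coding ends in the same exon in Mx1-205, Mx1-210 and Mx1-203. The TPM shown are of the first quantification. Mx1-201, with 15 exons, has 1.99 and 1.65 TPM there, against 124 and 96.4 TPM by the second.

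Mx2-202, annotated as a polymorphic pseudogene, stood at 150 and 173 TPM and held 71.1% ± 1.05 of Mx2. Its annotated coding sequence of 1969 bases is not a whole number of codons. Mx2-205, a retained-intron form of 537 bases, held 23.0% ± 3.35 by the first quantification and 13.5% by the second. The non-coding Mx2-203 held 4.80% by the first and 17.1% by the second, so the order of these forms turned. Mx2-201, annotated as protein-coding with 655 codons, held 0.372% ± 0.00332, on 60 and 66 counts. Nearly all Mx2 RNA was thus assigned to forms not annotated as protein-coding. Protein was not measured.

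Of the 10 genes, 8 were set beside a relative or binding partner outside the group, and in all 8 pairs the gene of the group was the higher. Only 2.22% of all genes and 5.42% of protein-coding genes reached 100 TPM in both libraries. A lower partner was therefore likely for any choice of partner. Cmpk2 was 25.3 and 25.1 times Cmpk1, the cytosolic UMP-CMP kinase, which stood at 68.7 and 76.8 TPM. Mx2, the lower of the Mx genes, was 2.53 and 3.01 times Dnm2, a dynamin of endocytosis at 82.1 and 81.6 TPM. Isg20 was 22.1 and 22.4 times Isg20l2, a nucleolar exonuclease of the same family at 11.8 and 13.9 TPM. Each of these ratios is between TPM values, and each held its direction in both libraries.

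Xaf1 was 18.6 and 21.3 times Xiap, which stood at 30.9 and 31.0 TPM. Ifi27l2a was 51.9 and 92.2 times Ifi27, and most of that spread was in Ifi27, at 18.1 and 11.0 TPM on 335 and 216 counts. Ifi35 and its partner Nmi were the closest pair, at 1.47 and 1.50 times, with Nmi at 147 and 143 TPM. Ifi44l and Rtp3, relatives of Ifi44 and Rtp4, had 0 counts in both libraries. Taking 3 counts per library as the limit that 0 allows, Ifi44 was at least 4473-fold higher than Ifi44l in replicate 1 and at least 3567-fold higher in replicate 2. Rtp4 was likewise at least 9048-fold and 8237-fold higher than Rtp3. Of 15 such relatives and partners, 8 reached 10 TPM, only Nmi reached 100 TPM, and 5 had 0 counts in both libraries.

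**Figure D5:**
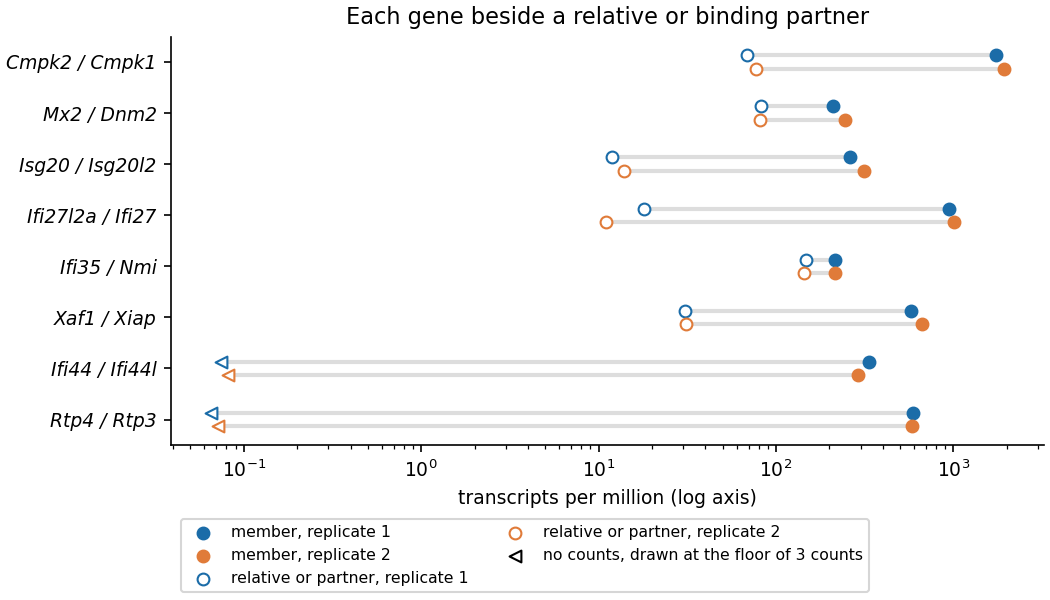
TPM (log axis) of 8 genes (filled) and a relative or binding partner (open) in replicate 1 (blue) and replicate 2 (orange), with genes of 0 counts drawn as triangles at the level 3 counts would give. The filled point lies to the right in every pair, most narrowly for Ifi35 and Nmi.

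Genes that induce, transmit and restrain the interferon signal were read from lists drawn up for this pathway. Irf7, a transcription factor that amplifies interferon induction, stood at 2327 and 2096 TPM. Stat2 was at 426 and 469 TPM, and Irf9, the DNA-binding part of ISGF3, was at 74.0 and 81.4 TPM. Irf9 was thus below Stat2, another ISGF3 subunit, in both libraries. Irf1 stood at 259 and 270 TPM and Irf5 at 178 and 186 TPM, Irf8 at 72.7 and 74.9 TPM, and Irf3, which Trif signalling activates, was at 33.9 and 25.9 TPM. Irf3 was the lowest of the Irf genes named here in both libraries.

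Of 10 genes of Trif and type I interferon signalling, 9 reached 10 TPM and 2 reached 100 TPM, with a median of 63.5 ± 4.64 TPM (SD of the library medians). The kinase gene Ikbke was highest at 367 and 281 TPM. Ifnb1, which encodes interferon beta itself, was lowest at 11.3 and 5.91 TPM, on 199 and 96 counts. The ligand gene was therefore far below the effector genes in both libraries. Of 4 genes listed as brakes on interferon signalling, Isg15 was highest at 3088 and 3151 TPM, and Socs1 lowest at 13.9 and 12.6 TPM. Isg15 encodes a ubiquitin-like modifier that stabilises the brake Usp18 in human cells. Whether it acts as a brake in these mouse cells was not tested. Usp18 itself stood at 511 and 706 TPM.

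Other antiviral interferon-stimulated genes were expressed at like levels. Of 25 such genes 23 reached 100 TPM, with a median of 579 ± 36.5 TPM, beside 603 ± 29.8 TPM for the 10 genes. Ifitm3 was highest and Ifitm1 lowest, at 2.92 and 5.35 TPM. Between the libraries 2 of the 25 were 2-fold apart, with Ifit1bl1 at 340 and 818 TPM and Ifitm1 as above, against 0 of the 10 genes and 4.21% of all genes.

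A further list joined genes of cytidine nucleotide metabolism with genes tied to viperin maturation and function, among them Ciao1, of iron-sulfur protein assembly, and Fdps, of isoprenoid synthesis. Of 8, 7 reached 10 TPM and 2 reached 100 TPM, with a median of 53.6 ± 11.2 TPM. The deoxynucleotide hydrolase gene Samhd1 was highest, at 1125 and 1306 TPM. Ctps, which encodes a CTP synthetase, was lowest at 2.44 and 2.52 TPM. Ctps2, which encodes another CTP synthetase, was higher, at 37.0 and 50.5 TPM. Substrate levels were not measured.

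The depth was 50503159 expected gene counts in replicate 1 and 46342331 in replicate 2, where 3 counts, the limit a count of 0 allows, equal 0.0594 and 0.0647 CPM. All 8 macrophage markers reached 10 TPM, from Mertk at 82.6 and 74.4 TPM up to Lyz2. Among them Cd14 differed most between the libraries, at 348 and 691 TPM. The neutrophil list summed to 62.9 and 4.40 TPM, nearly all from S100a9 and S100a8. Ltf had 52 and 1 counts, Camp 11 and 9, Elane 5 and 1, and Mpo 5 and 0. Ly6g and Retnlg had 0 counts in both libraries. The endothelial list summed to 15.7 and 49.3 TPM, mostly Kdr at 11.0 and 41.6 TPM, and of the T and NK cell list only Cd4 reached 10 TPM, at 42.8 and 40.2 TPM. B cell, dendritic cell and stromal lists each summed to at most 1.05 TPM in either library. The part of these differences in the ratios between libraries was not tested, and in bulk RNA fewer cells of a type and less RNA per cell cannot be told apart.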

How the data were processed

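PolyA-selected RNA of 2 biological replicates of 1 group was analysed. For each library the authors deposited gene and transcript tables with expected counts, TPM and FPKM, per the file headers, made from a transcriptome alignment on mm10 with GENCODE M21, per the deposited notes; this is called the first quantification. The second, with estimated counts and TPM, was made by the authors from the reads. The sources used here name no aligner, quantifier, version or strand setting. Reads of overlapping genes may not have been told apart: Ifi35 overlaps the antisense gene Gm11626 (1.05 and 0 counts), and Rtp4 overlaps Masp1 (2 and 3 counts) and Gm45338 (0 counts). The bounds deposited beside TPM lay below the TPM of 9 of the 10 genes in both libraries and were not used as errors.

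Symbols came from the transcript identifiers and were joined by gene identifier, version included. The 26345 entries that name no mouse gene held 0.0631% of counts in replicate 1 and 0.0676% in replicate 2 and were left out. Expected counts were rounded, filtered with filterByExpr and scaled with TMM in edgeR 4.0.16 (R 4.3.3), with a prior count of 0.5, and DESeq2 1.42.0 gave alternative size factors. The ratio step was tested on simulated data with known fold changes. Pair differences used log2(TPM + 1). Transcript shares are percents of the summed transcript TPM of a gene. Intervals are exact 95% Clopper-Pearson intervals of the split of counts between the libraries and leave out all other error, with no molecular identifiers used here. Tables were made with pandas 2.3.3 under Python 3.11.15, along with NumPy 2.4.6, intervals with SciPy 1.17.1, and plots with matplotlib 3.10.9.

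The members and lists were chosen with earlier results of these data known. Named were all 10 members, every gene of the pairs, the ISGF3 and Irf genes except 1 that is not reported here, the highest and lowest gene of other lists, the 2 genes nearest in level to the highest and lowest member, and transcripts with 5% or more of a gene in both libraries. Other genes and transcripts named, and the exon comparison of Mx1 and Mx2, were chosen after their values were seen.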

Additional observations from a re-analysis of the deposited data

How the results depend on the processing

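The median level of the 10 genes was 603 TPM, 558 TPM by the second quantification and 432 by FPKM. Leaving out each library in turn gave medians of 581.9 to 624.0 TPM and a log2 ratio of Rsad2 over Cmpk2 of 0.97 to 1.11. Genes 2-fold apart between the libraries numbered 528, 5481 with no filter on low counts and 196 with a mean count of at least 100. None of the 10 genes was 2-fold apart under any setting tried. The number of genes with an ISRE core was 2, 1 with a further A, 1 when only the 250 bases before the start were searched, and 4 with AAANNGAAA, a motif chosen after seeing the data. By the second quantification 15 of 29 values of single genes and pairs moved by more than the SD of the libraries, and 14 did not. With a pseudocount of 0.1 TPM, 4 of 9 pair differences other than that of Rsad2 and Cmpk2 moved by more than that SD. No paired analysis was possible because there was 1 group. With 2 libraries an SD rests on 1 difference. Depth limits most the transcripts with few counts, such as Mx2-201 and, by the first quantification, Mx1-201. The share of Mx1-201 also depended on the quantification, at 0.133% by the first and 7.31% by the second.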
